A study of Mus musculus with 21 samples.

Results

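The comparison described here set Dot1l knockout (KO) cells against control cells after 24 h of Wnt3a and activin A, in 3 libraries of each. Dot1l is the histone methyltransferase that places methyl groups on lysine 79 of histone H3. All cells were mouse embryonic stem (ES) cells of strain V6.5, and the genotype was given as WT for the control, whose titles name a control sgRNA, and as Dot1l KO for the other group. Neither the cut site of the guide nor whether the KO cells came from a clone or a pool is stated. Both groups had been kept on inactivated mouse embryonic fibroblasts and were then plated on gelatin in N2B27, a serum-free medium, with 10 µM Y-27632, a ROCK inhibitor. After 2 days Wnt3a was added to both at 50 ng/ml together with activin A at 10 ng/ml, and RNA was taken 24 h later. Another pair of groups, with the same genotypes and 3 libraries each, was grown with 100 U/ml LIF, the cytokine that holds ES cells undifferentiated, and is used below only for contrast. Of 53796 genes listed, the 12770 whose 6 values averaged 1 FPKM or more were tested, 28179 were listed at 0 in every library and 12847 lay between, 252 of them within 0.1 FPKM below the minimum against 209 within 0.1 FPKM above it.

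Wnt and activin signals together drive epiblast-like cells into the state of the primitive streak, the site in the embryo where mesoderm and endoderm form. Wnt ligands act through beta-catenin and the TCF/LEF factors, and activin shares receptors and Smad effectors with Nodal, the ligand that works in the embryo itself. Cells leaving the streak lose epithelial contacts, switch cadherins and take up mesoderm or endoderm programmes. Methylation of lysine 79 is found over the bodies of transcribed genes, and Dot1l works with proteins of the elongation machinery.

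Values are FPKM, fragments scaled to transcript length and library size, so the depth behind a value is unknown. Tests were run in limma on log2(FPKM + 1), a scale that understates the change of genes with low values, and a gene is said to rise or fall where the Benjamini-Hochberg adjusted p was at most 0.05. Of the genes tested, 49.1% passed, 19.6% higher and 29.5% lower in KO, and in 60.1% the values of the groups did not overlap. In 6.34% the log2 fold change was also at least 1 in size, 3.38% higher and 2.95% lower. The share passing in a list is to be read against these figures. With a median-of-ratios rescaling, 3063 genes were higher and 3156 lower in place of 2500 and 3773. The median log2 fold change of all genes tested was -0.08. The control libraries summed to between 1087971 and 1144373 FPKM and the KO libraries to between 759255 and 792381, and between 34393 and 35164 genes were listed at 0 in control libraries against 32756 to 33450 in KO libraries. Nothing in the labels says that replicates were separate cultures, and the p-values then reflect only how these libraries vary, which may be technical. RNA was taken from whole cultures, so fewer cells of a type and less RNA per cell cannot be told apart.

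Changes followed the genomic span and the level of genes. Some of the lists and genes below are also given with that trend removed, and counts and medians with no scaling named are as deposited. In the 10% of genes with the shortest span, up to 3.11 kb, 2.77% were higher and 44.8% lower in KO. In the 10% with the longest span, from 108 kb, 37.6% were higher and 10.0% lower. By level, 75.9% of genes in the top 10% were lower, from 101 FPKM upward, and 6.03% of those in the lowest 10%. Values called trend-removed below have a smooth function of span and level subtracted in every library, and quantile values have the same distribution forced on every library. Over all genes tested, the median was -0.04 after quantile normalization and -0.02 after removal of the trend.

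**Figure D1:**
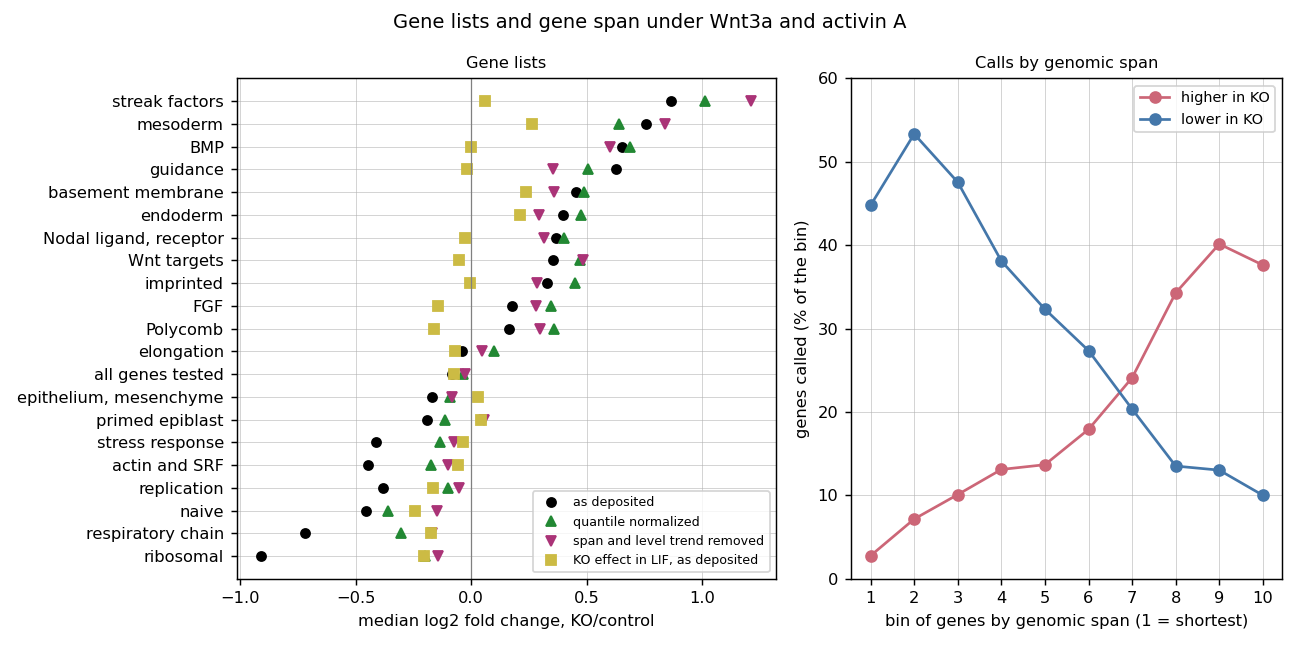
Left, the median log2 fold change (KO/control) of 20 gene lists and of all genes tested, as deposited, after quantile normalization, after removal of the trend, and for the KO effect in LIF. Right, the percentage of genes called higher and lower in 10 bins of equal gene number by genomic span. Streak factors stay between 0.87 and 1.21 under the 3 scalings, whereas ribosomal genes move from -0.91 to -0.20 and -0.15.

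The Dot1l transcript stood at 18.5, 17.7 and 19.1 FPKM in control and 13.5, 12.9 and 14.7 FPKM in KO libraries. The groups did not overlap, and the transcript remained in every library labelled KO. It was lower by a log2 fold change of -0.40 (SE 0.07, adjusted p = 0.00462), against -1.04 in LIF. What protein or activity remained was not measured. The genes for proteins that work with Dot1l in elongation did not move as 1 group. Of 19 tested, 7 rose and 5 fell, and the median was 0.10. Aff4, the scaffold of the super elongation complex, stood at 6.83, 6.21 and 6.11 FPKM in control and 21.1, 17.1 and 16.6 in KO libraries. Kmt2a, the methyltransferase of histone H3 lysine 4 whose leukaemic fusions recruit Dot1l, rose from a mean of 1.88 to 4.60 FPKM (log2 fold change 0.96, adjusted p = 0.000978). Ccnt2, a cyclin of the elongation kinase P-TEFb, rose by 0.94, and Aff1, another scaffold of the family, by 0.79 on the log2 scale. Mllt3, a YEATS-domain partner that binds Dot1l, differed by 0.17 (SE 0.24) with groups that overlapped. Mllt10, the cofactor that the cells need for higher methylation states at lysine 79, fell by 0.33 on the log2 scale, although its locus is shared with another tested gene and the call was lost without control replicate 1 or 2 or KO replicate 3 (adjusted p from 0.0515 to 0.0607). Npm1, a nucleolar chaperone, was lower as deposited (-0.20) and higher after quantile normalization (0.59) and removal of the trend (0.39), so its direction depends on the scaling. Its call was also lost without control replicate 1 (adjusted p = 0.0512) or KO replicate 2 (0.0505).

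Other elongation genes moved in both directions. Cdk12 and Cdk13, kinases of the RNA polymerase II tail, rose from means of 8.80 to 18.4 FPKM and from 11.8 to 22.2 FPKM. The negative elongation factor subunit Nelfe fell from 158 to 84.7 FPKM and Paf1, which names the polymerase-associated factor complex, from 251 to 142 FPKM. Over the 32 elongation genes tested, 10 rose and 14 fell, a median of -0.04 that became 0.10 after quantile normalization. The fall of Paf1 was -0.22 with the trend removed and no longer passed.

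Transcription factors of the streak were higher in KO. Of 16 listed, 15 passed the filter on low values, 14 rose and 1 fell, with a median of 0.87. The median was 1.01 after quantile normalization and 1.21 with the trend removed. Noto was under the filter. Lhx1, a LIM homeodomain factor of the node and anterior endoderm, was at 8.56, 7.08 and 7.22 FPKM in control and 89.9, 102 and 103 in KO libraries. Mixl1, a homeodomain factor of the streak, was at 28.0, 27.3 and 25.9 FPKM in control and 83.0, 82.6 and 79.9 in KO libraries. The KO libraries of both genes lay far above the controls, with a spread within groups much smaller than the gap.

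Eomes, the T-box factor needed for endoderm and early mesoderm, was at 32.5, 33.1 and 32.8 FPKM against 74.2, 75.8 and 75.6 in KO, a log2 fold change of 1.17 (SE 0.04, adjusted p = 5.19e-05), and shares its locus with 1 other tested gene. T (Brachyury), the T-box factor that marks the whole streak, was the most abundant of the list, at 584, 529 and 551 FPKM in control and 685, 691 and 701 in KO libraries. Its groups did not overlap, but the step was small, 0.32 (SE 0.04, adjusted p = 0.00178), and became 0.80 after quantile normalization. Gsc, an organizer factor, rose from 55.4 to 93.8 FPKM and Foxa2, a forkhead factor of node and endoderm, from 36.8 to 63.5 FPKM. Evx1, a factor of the posterior streak, rose from 12.2 to 23.2 FPKM, and its locus is shared with another tested gene. Both anterior and posterior streak genes are thus among those that rose.

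Caudal genes were low, and 2 of them passed the filter and rose. Cdx1 was at 0.786, 0.730 and 0.862 FPKM in control and 2.78, 2.76 and 2.48 in KO libraries, and Cdx2 at 1.56, 0.841 and 1.69 and 3.31, 3.38 and 3.37 FPKM. Cdx4 was under the filter, with a mean of 0.159 FPKM in control and 0.0548 in KO libraries. Hhex, a factor of anterior endoderm, was at 6.91, 5.93 and 4.87 FPKM in control and 13.5, 13.2 and 14.5 in KO libraries. The exception in the list was Foxh1, the DNA-binding partner of Smad2 and Smad3, at 107, 103 and 102 FPKM in control and 68.3, 76.6 and 75.5 in KO libraries. It fell by 0.50 on the log2 scale as deposited, by 0.16 after quantile normalization, and was at 0.09 with the trend removed.

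**Figure D2:**
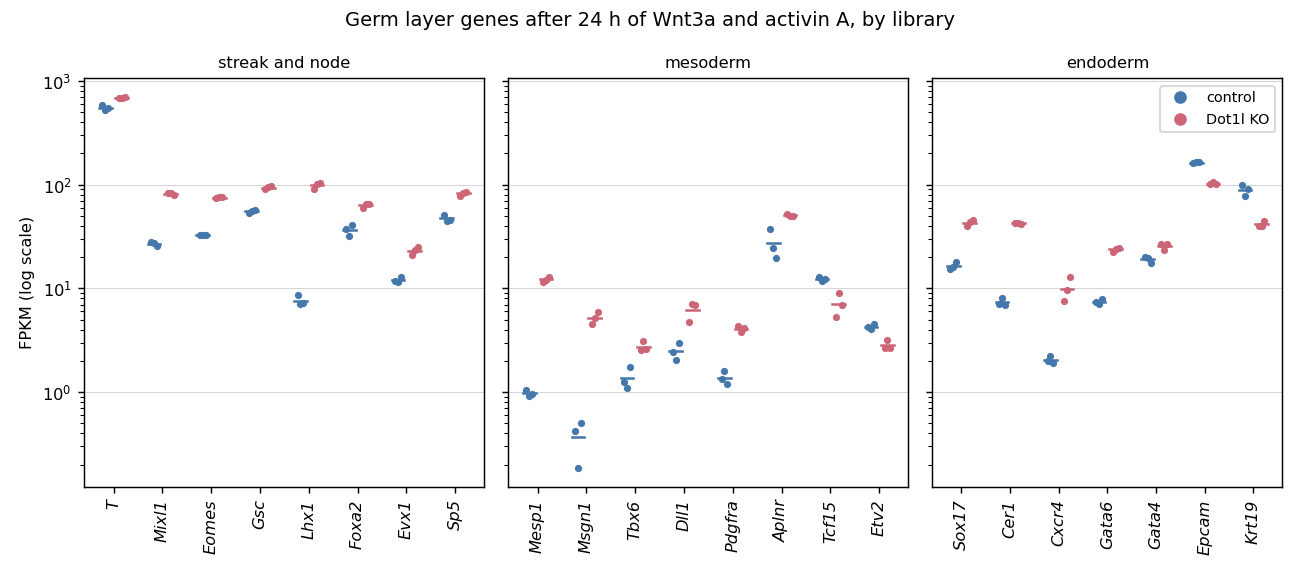
FPKM on a log scale in each of the 3 control (blue) and 3 Dot1l KO (red) libraries, with the group mean as a bar, for genes of the streak, of mesoderm and of endoderm. The groups are apart in each of the 23 genes shown; Tcf15, Etv2, Epcam and Krt19 are the ones lower in KO.

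For the 4 genes of the streak, mesoderm and endoderm lists with the largest rises, the promoters are shown because these genes lead the lists that the comparison turns on. The sequences are from RefSeq (GRCm38.p6) and run from 250 bases before the start of the gene to 50 bases after it, 5′ to 3′ on the strand of the gene. Capitals mark matches on either strand to CTTTGAT or CTTTGAA (TCF/LEF), CAGACA (Smad) and AGGTGTNA (T-box). A match is a description of the letters, not a site.
Lhx1, chr11:84525485-84525784, minus strand: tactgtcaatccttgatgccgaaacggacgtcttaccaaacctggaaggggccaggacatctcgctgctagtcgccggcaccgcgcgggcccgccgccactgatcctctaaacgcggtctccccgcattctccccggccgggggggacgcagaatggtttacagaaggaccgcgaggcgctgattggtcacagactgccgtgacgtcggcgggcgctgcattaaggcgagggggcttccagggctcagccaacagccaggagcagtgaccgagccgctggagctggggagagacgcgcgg
Mesp1, chr7:79793541-79793840, minus strand: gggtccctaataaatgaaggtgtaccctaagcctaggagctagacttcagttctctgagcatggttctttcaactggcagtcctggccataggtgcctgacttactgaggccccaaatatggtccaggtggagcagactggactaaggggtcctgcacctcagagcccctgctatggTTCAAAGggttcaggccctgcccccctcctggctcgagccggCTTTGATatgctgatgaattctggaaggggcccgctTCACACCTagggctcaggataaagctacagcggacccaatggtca
Cer1, chr4:82885102-82885401, minus strand: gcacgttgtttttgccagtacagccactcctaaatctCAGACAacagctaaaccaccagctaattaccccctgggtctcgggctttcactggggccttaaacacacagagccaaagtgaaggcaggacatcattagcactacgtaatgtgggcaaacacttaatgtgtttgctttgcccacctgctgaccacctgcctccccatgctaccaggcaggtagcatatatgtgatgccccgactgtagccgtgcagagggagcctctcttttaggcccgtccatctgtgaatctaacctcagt
Msgn1, chr12:11208899-11209198, minus strand: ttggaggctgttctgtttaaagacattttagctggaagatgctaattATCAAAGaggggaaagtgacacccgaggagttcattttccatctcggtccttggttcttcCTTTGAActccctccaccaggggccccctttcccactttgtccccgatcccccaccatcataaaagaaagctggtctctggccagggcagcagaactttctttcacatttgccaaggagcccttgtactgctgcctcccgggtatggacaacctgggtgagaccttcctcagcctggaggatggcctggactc
The Mesp1 window holds 2 TCF/LEF matches and 1 T-box match, the Msgn1 window 2 TCF/LEF matches and the Cer1 window 1 Smad match. The Lhx1 window holds none of these letters, nor AATNCACA (Foxh1), which was also searched. Over 11971 promoters of tested genes, 5.72% held a TCF/LEF match, 15.8% a Smad match, 2.24% a T-box match and 2.02% a Foxh1 match. Of the 14 streak factors that rose, 11 had entries, with 16 promoters. A TCF/LEF match was found in 3 of those 16 (Foxa2, Sp5 and T), a Smad match in 2 and a T-box match in 1, the one of T. No test was made of these counts.

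Most mesoderm genes that were tested rose. Of 26 listed, 17 passed the filter, 13 rose and 2 fell, with a median of 0.76. Mesp1, the basic helix-loop-helix (bHLH) factor of the earliest cardiac and cranial mesoderm, was at 1.05, 0.914 and 0.957 FPKM in control and 11.6, 12.2 and 13.0 in KO libraries. Msgn1, a bHLH factor of presomitic mesoderm, was at 0.427, 0.185 and 0.504 FPKM in control and 4.50, 5.17 and 5.96 in KO libraries. Rspo3, a secreted enhancer of Wnt signals, was at 2.70, 2.63 and 1.10 FPKM in control and 7.07, 7.37 and 4.86 in KO libraries. Groups did not overlap for any of these, though Rspo3 was lowest in replicate 3 of both groups.

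The receptor genes Pdgfra and Aplnr and the ligand gene Dll1 rose too. Pdgfra, the receptor for platelet-derived growth factor, rose from 1.38 ± 0.204 to 4.09 ± 0.249 FPKM (SD, n = 3). The Notch ligand Dll1 rose from 2.47 ± 0.473 to 6.23 ± 1.29 FPKM (SD, n = 3). Aplnr, the receptor for apelin on migrating mesoderm, had controls spread from 19.6 to 37.6 FPKM and KO libraries between 50.2 and 52.7 FPKM. Its ligand Apln, named after its values were seen, was at 15.6, 14.0 and 15.8 and 31.9, 31.9 and 33.6 FPKM, so receptor and ligand were both higher. The members that fell were Tcf15 and Etv2. Tcf15, a bHLH factor of somites that is also found in epiblast cells, was at 12.9, 11.9 and 12.4 FPKM in control and 5.34, 9.06 and 6.98 in KO libraries. Etv2, the ETS factor that opens the blood and endothelial programme, was at 4.22, 4.02 and 4.50 and 2.67, 3.18 and 2.67 FPKM. With the trend removed, Etv2 differed by -0.23 and did not pass. Kdr, a receptor of blood and endothelial precursors, was under the filter, at a mean of 0.0358 FPKM in control and 0.577 in KO libraries.

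Endoderm genes moved in both directions. Of 17 tested, 9 rose and 4 fell, with a median of 0.40. Sox17, the HMG-box factor of definitive endoderm, was at 15.3, 16.1 and 18.0 FPKM in control and 39.6, 43.7 and 45.9 in KO libraries. Cxcr4, a chemokine receptor used to sort definitive endoderm, was at 2.01, 2.26 and 1.91 FPKM in control and 7.49, 9.57 and 12.8 in KO libraries. Gata6 was at 7.42, 7.14 and 7.87 FPKM against 22.6, 23.9 and 24.8 in KO, at a locus shared with another tested gene, while its relative Gata4 moved less, from 19.3 to 25.7 FPKM. The 4 that fell were Krt19, a keratin (88.9 to 41.7 FPKM), Epcam, an epithelial adhesion molecule (163 to 103 FPKM), Trh, a peptide hormone precursor (83.8 to 53.2 FPKM), and Cldn6, a tight junction claudin (176 to 115 FPKM). Cldn6 fell by 0.60 on the log2 scale as deposited, but stood at 0.06 with the trend removed. With the trend removed neither Gata4 (0.24) nor Trh (-0.06) passed. Hnf4a and Ttr, markers of later or visceral endoderm, were at most at 2.31 FPKM in any library.

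Basement membrane and yolk sac endoderm genes were mixed. Of 19 tested, 11 rose and 5 fell, with a median of 0.46. Col4a1, a chain of type IV collagen, was at 141, 140.3 and 137 FPKM in control and 278, 279 and 284 in KO libraries, and Col4a2, which shares its locus, rose from 46.5 to 70.6 FPKM. Lama1, the laminin alpha 1 chain, rose from 30.3 to 51.2 FPKM and Dab2, an endocytic adaptor of primitive endoderm, from 42.5 to 82.6 FPKM. Sparc, a collagen-binding glycoprotein, was at 372, 372 and 374 FPKM in control and 370.5, 381 and 373 in KO libraries, with groups that overlapped. Apoe, a lipid carrier, went the other way, from 1108, 998 and 1154 FPKM in control to 408, 459.6 and 417 in KO libraries (log2 fold change -1.34, adjusted p = 8.2e-05). Hspg2, the core protein of perlecan, fell from 83.5 to 47.1 FPKM.

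Genes of the Nodal and activin pathway moved in both directions. Of 16 ligand, receptor and Smad genes tested, 9 rose and 5 fell, and of 18 targets and antagonists 8 rose and 3 fell. Nodal was at 106, 107 and 107 FPKM in control and 60.8, 66.3 and 62.7 in KO libraries. Gdf3, a ligand that acts with Nodal, was at 10.4, 9.40 and 9.82 FPKM in control and 1.25, 1.93 and 1.61 in KO libraries. The coreceptor Tdgf1 (Cripto) was at 389.8, 388 and 379 FPKM in control and 338, 346 and 341 in KO libraries, lower as deposited (-0.17) but higher after quantile normalization (0.31) and with the trend removed (0.47). For Nodal the trend-removed value was -0.25, and for Gdf3 it was -1.88.

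Among the 9 that rose were a coreceptor, receptors and Smads. Cfc1 (Cryptic), the relative of Tdgf1, was at 1.25, 1.71 and 3.56 FPKM in control and 6.07, 8.40 and 8.03 in KO libraries. Smad3, an effector of activin and Nodal, was at 5.25, 6.01 and 4.90 FPKM in control and 14.1, 13.4 and 11.2 in KO libraries, while Smad2, its partner, differed by 0.29 (adjusted p = 0.0461) and no longer passed without control replicate 1 or 3 or without any 1 of the KO libraries (adjusted p from 0.0743 to 0.123). The receptor genes Tgfbr1 and Acvr2b rose by 0.86 and 0.80 on the log2 scale, and Acvr1b, the main type I activin receptor, differed by 0.19 (SE 0.10) without passing.

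Antagonists and targets of the pathway did not follow 1 direction. Cer1 (Cerberus), which binds Nodal, BMP and Wnt ligands outside the cell, was at 7.01, 8.09 and 6.94 FPKM in control and 42.6, 43.0 and 42.0 in KO libraries. Fst, which binds activin, rose from 95.5 ± 6.52 to 147 ± 6.35 FPKM (SD, n = 3), and Skil, a corepressor of Smads, from 7.17 to 13.0 FPKM. Lefty1, an antagonist that Nodal itself induces, was at 105, 115 and 119.9 FPKM in control and 65.9, 80.5 and 80.7 in KO libraries, whereas its neighbour in function Lefty2 rose from 15.3 to 19.0 FPKM, a call lost without control replicate 1 or 2 or KO replicate 1 or 2 (adjusted p from 0.0634 to 0.071). Lefty1 fell by 0.58 on the log2 scale as deposited and stood at 0.03 with the trend removed. Drap1, a corepressor that limits Nodal signals, fell from 294 to 135 FPKM.

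**Figure D3:**
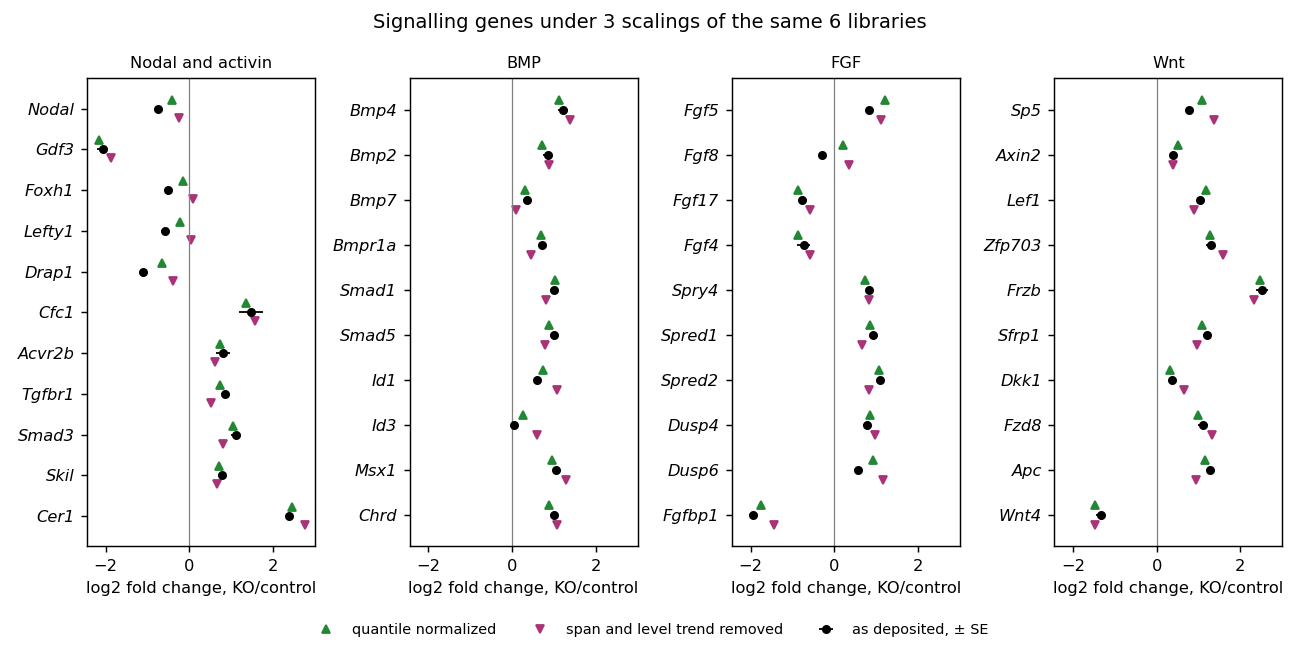
Log2 fold change (KO/control) of genes of the Nodal and activin, BMP, FGF and Wnt pathways, as deposited with its standard error (black), after quantile normalization (green) and after removal of the trend (purple). BMP genes lie at or right of 0 under each scaling, while Foxh1, Lefty1 and Fgf8 cross 0 between scalings.

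In the BMP pathway no tested gene passed as lower, nor did any do so at an unadjusted limma p under 0.05. Of 17 genes tested, 11 rose and none fell, against 19.6% of all genes higher, and 6 did not pass, with a median of 0.66 (0.69 after quantile normalization, 0.60 with the trend removed). In the LIF comparison 13 of these genes were tested and the median was near 0, at -0.002. There 2 passed as higher, against 0.958% of all genes, and 0 as lower, with 2 lower at an unadjusted limma p under 0.05. Bmp4, the ligand that patterns posterior mesoderm, was at 3.52, 3.67 and 3.66 FPKM in control and 11.8, 8.88 and 8.98 in KO libraries. Bmp2 was at 2.35, 1.86 and 1.92 FPKM in control and 4.28, 4.70 and 4.55 in KO libraries, and Bmp7 rose from 8.79 to 11.7 FPKM, with an adjusted p of 0.0509 without KO replicate 2 and a trend-removed value of 0.11 that did not pass.

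Genes downstream of the ligands rose in several steps of the pathway. Smad1 was at 12.7, 11.4 and 11.3 FPKM in control and 24.8, 26.4 and 22.6 in KO libraries, and Smad5, the other main BMP effector, at 4.32, 4.64 and 4.39 and 9.92, 11.2 and 8.78 FPKM. The type I receptor Bmpr1a rose from 7.97 to 13.9 FPKM. Among target genes, Msx1 was at 4.56, 3.96 and 4.74 FPKM in control and 9.93, 10.4 and 10.6 in KO libraries, and Tfap2c, a factor of germ cell precursors and trophoblast, at 2.67, 2.91 and 2.45 and 7.86, 7.33 and 8.55 FPKM. Id1 rose from 23.2 to 35.8 FPKM, but the related Id3 was at a mean of 44.1 FPKM in control and 45.8 in KO libraries, which overlapped. Chrd, an extracellular BMP antagonist of the node, rose from 3.94 to 8.84 FPKM at a locus shared with another tested gene, and Nog, another antagonist, differed by 0.13 (SE 0.16).

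Wnt targets and Wnt antagonists included more genes that rose than fell. Of 20 targets tested, 14 rose and 1 fell, with a median of 0.35. Of 9 antagonists, 5 rose, and none fell in limma as deposited, also at an unadjusted p under 0.05. Kremen1, at -0.18 as deposited, did pass as lower after quantile normalization (-0.32) and with the trend removed (-0.51). Sp5, a zinc finger factor induced by beta-catenin, was at 51.6, 44.8 and 46.0 FPKM in control and 77.3, 83.6 and 86.0 in KO libraries. Axin2, the feedback scaffold used as a readout of the pathway, was at 22.6, 22.8 and 24.3 FPKM in control and 30.7, 32.1 and 29.3 in KO libraries. Lef1, a nuclear partner of beta-catenin, was at 20.8, 18.5 and 17.5 FPKM in control and 37.1, 40.1 and 42.5 in KO libraries (log2 fold change 1.04). Cdkn1a, the cell cycle inhibitor p21, was the target that fell as deposited (-0.26), and it was higher after quantile normalization (0.10) and with the trend removed (0.20).

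Of the secreted antagonists, Frzb was at 2.91, 1.92 and 1.79 FPKM in control and 17.3, 17.0 and 17.4 in KO libraries. Sfrp1, of the same family, was at 3.10, 2.90 and 2.77 and 8.74, 7.75 and 7.61 FPKM, and Dkk1, which blocks the coreceptors, at 8.74, 9.84 and 8.52 and 11.5, 12.6 and 11.8 FPKM. In the ligand and receptor list, 12 of 29 rose and 7 fell. Fzd8, a receptor, rose from 2.68 to 6.88 FPKM and Apc, a scaffold of the destruction complex, from 2.96 to 8.58 FPKM. The transcript of Wnt3a, the factor added to the medium, was low, at 0.407, 0.882 and 1.20 FPKM in control and 2.02, 2.47 and 2.58 in KO libraries. With the trend removed, Wnt3a was at 0.58 and did not pass. Wnt4 went down, from 4.80, 4.84 and 5.46 FPKM in control to 1.39, 1.18 and 1.58 in KO libraries (log2 fold change -1.34, adjusted p = 0.000336).

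FGF ligands moved in both directions, while the feedback inhibitors that passed rose, apart from the phosphatase gene Dusp14. Of 27 tested, 11 rose and 6 fell, with a median of 0.18. Spry4, an inhibitor of receptor tyrosine kinase signals, was at 5.30, 5.30 and 5.30 FPKM in control and 10.1, 10.4 and 9.91 in KO libraries. The inhibitors Spred1 and Spred2 rose from 5.68 to 11.7 FPKM and from 9.05 to 20.2 FPKM. The phosphatases of ERK Dusp4 and Dusp6 rose from 15.2 to 26.9 FPKM and from 82.7 to 122 FPKM. The phosphatase gene Dusp14 fell from 7.02 to 3.49 FPKM. The related inhibitors Spry1 and Spry2 overlapped between groups and did not pass as deposited, at log2 fold changes of -0.02 (SE 0.07) and 0.04 (SE 0.07). With the trend removed both passed as higher, at 0.22 and 0.46. Among ligands, Fgf5, a marker of the epiblast, was at 78.7, 82.3 and 81.1 FPKM in control and 143, 145 and 144 in KO libraries. The ligand gene Fgf3 also rose, from 1.98 to 4.13 FPKM, and Fgf4 fell from 1.83 to 0.702 FPKM. Fgf17 was at 9.33, 9.94 and 10.4 FPKM in control and 5.44, 5.26 and 5.45 in KO libraries. Fgf8, the ligand of the streak, was at 330.0, 285 and 334 FPKM in control and 243, 263 and 265 in KO libraries, lower as deposited (-0.30) and higher after quantile normalization (0.20) and with the trend removed (0.34). Without control replicate 1 or 3 or KO replicate 1 it did not pass (adjusted p from 0.06 to 0.0636). Fgfbp1, which carries FGF ligands out of the matrix, had among the largest falls, from 76.1, 73.9 and 75.3 FPKM in control to 19.2, 16.3 and 21.8 in KO libraries.

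Pluripotency genes did not fall as 1 block. Of 17 general pluripotency genes tested, 5 rose and 7 fell. Utf1, a chromatin factor of ES cells, was at 199, 176 and 206 FPKM in control and 59.4, 61.0 and 62.0 in KO libraries. Dppa4, a nuclear protein of pluripotent cells, was at 15.1, 13.5 and 12.1 FPKM in control and 3.42, 3.60 and 3.69 in KO libraries. Pou5f1 (Oct4), the core factor of pluripotency, was at 1904, 1890 and 1760 FPKM in control and 1050, 1142 and 1138 in KO libraries, a log2 fold change of -0.74 (SE 0.05). Pou5f1 is among the most abundant genes, and its value became -0.06 after quantile normalization and 0.01 with the trend removed, so its fall as deposited does not hold under those scalings. For Utf1 and Dppa4 the trend-removed values were -0.99 and -1.57.

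The zinc finger factors Sall4 and Zfp281 were among those that rose. Sall4 was at 95.3, 103 and 102 FPKM in control and 193, 179 and 176 in KO libraries. Zfp281 was at 4.60, 4.85 and 4.39 FPKM in control and 10.1, 8.85 and 8.10 in KO libraries. Sox2, already low at this stage, was at a mean of 6.49 FPKM in control and 7.21 in KO libraries, which overlapped.

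Of 22 genes of naive pluripotency, the state of ES cells before implantation, 14 passed the filter, 3 rose and 6 fell. The median was -0.46 as deposited and -0.15 with the trend removed. Prdm14, Nr0b1, Tfcp2l1 and Gbx2 were among the 8 under the filter. Nanog was at 85.0, 69.4 and 85.0 FPKM in control and 55.2, 57.0 and 57.5 in KO libraries, and its trend-removed value was -0.01. Dppa5a was at 152, 146 and 146 FPKM in control and 66.4, 80.2 and 72.7 in KO libraries. Fbxo15, a target of Oct4 and Sox2, fell from 15.9 to 8.69 FPKM at a locus shared with another tested gene. Klf4, Klf5 and Tbx3, which also act outside the naive state, were the ones that rose, Klf5 from 17.5, 17.9 and 17.7 FPKM in control to 22.4, 22.9 and 23.3 in KO libraries.

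Genes of the primed epiblast, the state after implantation, split likewise, with 7 of 25 higher and 12 lower as deposited. Zic2 and Zic5, neighbouring zinc finger genes, rose from 41.6 to 80.1 FPKM and from 7.66 to 19.1 FPKM. Otx2, a homeodomain factor of the anterior epiblast, was at 33.4, 32.4 and 37.0 FPKM in control and 63.6, 60.6 and 65.4 in KO libraries, at a locus shared with 2 other tested genes. Pou3f1 (Oct6) was at 28.3, 26.5 and 28.2 FPKM in control and 9.60, 11.4 and 11.2 in KO libraries, and Sox3, a factor of epiblast and neural cells, at 38.0, 30.8 and 33.9 and 14.1, 13.6 and 13.6 FPKM. The groups were apart in all 5 genes. Dnmt3b, a DNA methyltransferase of the epiblast, rose from 139 to 170.4 FPKM while Dnmt3a and Dnmt3l fell, from 43.9 to 31.7 FPKM and from 32.8 to 22.8 FPKM. The balance of this list depends on the scaling, so no direction is given for it. With the trend removed, Etv4, Tead2 and Igfbp3 were among those that also passed as higher. Foxd3 and Cldn6 were among those that no longer passed as lower.

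**Figure D4:**
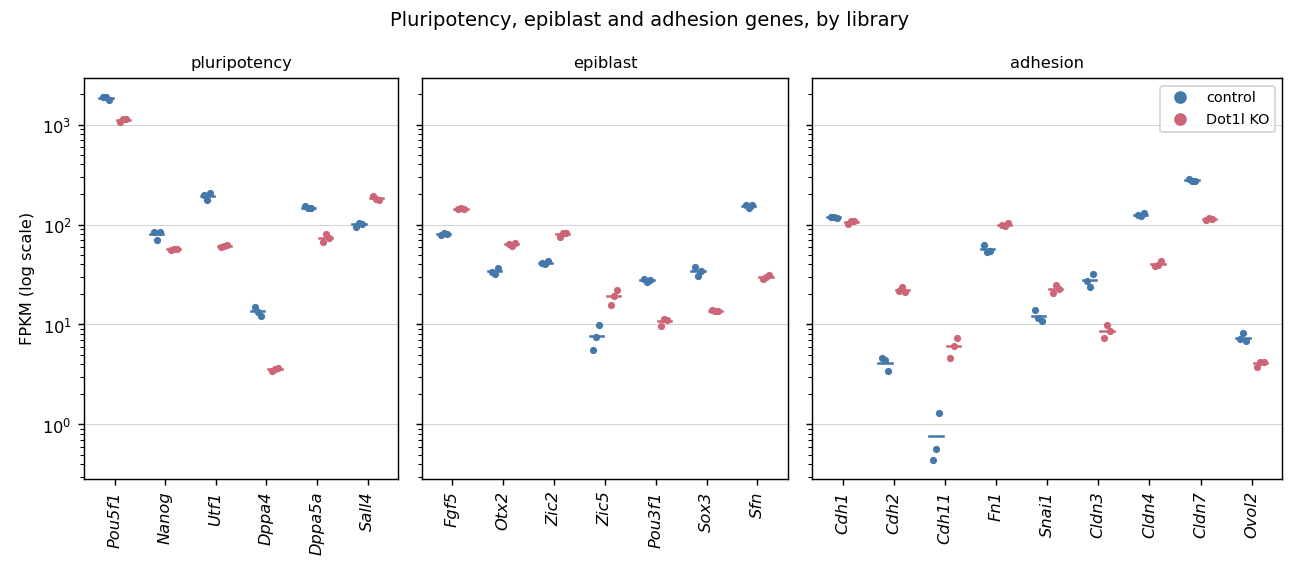
FPKM on a log scale in each of the 3 control (blue) and 3 Dot1l KO (red) libraries, with the group mean as a bar, for genes of pluripotency, of the epiblast and of cell adhesion. Dppa4, Pou3f1, Sox3, Sfn and the claudins are lower in KO, and Cdh2, Cdh11, Fn1, Snai1, Sall4, Fgf5, Otx2, Zic2 and Zic5 higher.

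The cadherin genes Cdh2 and Cdh11 rose and the claudin genes Cldn3, Cldn4 and Cldn7 fell. Of 31 genes of the epithelial and mesenchymal list tested, 6 rose and 15 fell. Cdh2 (N-cadherin) was at 4.62, 4.36 and 3.43 FPKM in control and 21.5, 24.0 and 20.9 in KO libraries. Cdh11, a mesenchymal cadherin, was at 0.437, 0.573 and 1.30 FPKM in control and 4.61, 6.12 and 7.41 in KO libraries. Cdh1 (E-cadherin) was still at 120.2, 119 and 115 FPKM in control and 102, 108 and 107 in KO libraries, lower as deposited (-0.16) and higher after quantile normalization (0.23), and without control replicate 1 or 2 it did not pass (adjusted p = 0.066 and 0.0593). Snai1, the repressor of Cdh1, was at 14.0, 11.7 and 10.8 FPKM in control and 20.8, 25.0 and 22.8 in KO libraries, and Fn1 (fibronectin) at 61.9, 53.5 and 54.7 and 99.1, 96.8 and 103 FPKM. Vim (vimentin) was lower as deposited (-0.16) and higher after quantile normalization (0.33) and with the trend removed (0.43).

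Claudins and other genes of epithelia were among those that fell. Cldn4 was at 123, 123 and 131 FPKM in control and 38.2, 39.2 and 43.6 in KO libraries. Cldn7 was at 288, 269.7 and 271 FPKM in control and 112, 115 and 113 in KO libraries, and Cldn3 at 27.4, 23.9 and 31.7 and 7.40, 9.86 and 8.55 FPKM. Each of the 3 claudins stayed lower under both other scalings, with trend-removed values of -1.01, -0.60 and -1.19. Ovol2, a zinc finger repressor that guards the epithelial state, fell from 7.41 to 4.07 FPKM, and the protease inhibitors Spint1 and Spint2 from 61.0 to 33.0 FPKM and from 259 to 149 FPKM. Rab25, a vesicle protein of epithelia, was at 31.4, 31.4 and 31.1 FPKM in control and 16.7, 11.3 and 12.1 in KO libraries. Sfn (14-3-3 sigma), an epithelial adaptor, had the largest fall among the genes named by rule, at a log2 fold change of -2.31. Tjp1, the scaffold of tight junctions, rose instead, from 21.7 to 33.2 FPKM.

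Guidance and migration genes rose in number. Of 35 tested, 20 rose and 2 fell, with a median of 0.63 that was 0.51 after quantile normalization and 0.36 with the trend removed. Plxna1, a semaphorin receptor, was at 16.1, 15.9 and 13.5 FPKM in control and 37.9, 48.8 and 49.5 in KO libraries. Sema6d, a ligand of the same system, was at 0.259, 0.177 and 0.206 FPKM in control and 2.85, 2.57 and 2.78 in KO libraries. Slit2, a repellent for cells and axons, was at 0.642, 1.13 and 2.44 FPKM in control and 6.72, 7.55 and 4.39 in KO libraries. The groups did not overlap in any of the 3, and in Slit2 the spread within each group was wide.

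The axial and retinoid lists held the largest rise among the genes named by rule. Greb1l, a relative of the hormone-induced cofactor Greb1, was at 0.612, 1.03 and 0.531 FPKM in control and 37.3, 18.5 and 19.5 in KO libraries, with KO replicate 1 well above the other two. Cyp26a1, the enzyme that breaks down retinoic acid, was at 8.13, 7.29 and 7.71 FPKM in control and 37.6, 35.3 and 33.2 in KO libraries (log2 fold change 2.06, SE 0.07, adjusted p = 5.19e-05). Of the 36 Hox, Cdx, Meis, Pbx and related genes listed, 7 passed the filter, so their count is no guide to the list. Hoxb1 was at 0.507, 0.560 and 1.31 FPKM in control and 2.39, 3.25 and 3.20 in KO libraries. The receptor genes Rarg and Rxrb fell, Rarg from 34.2 to 22.5 FPKM, and Rxrb from 37.6 to 27.9 FPKM. Rxrb was at -0.03 with the trend removed and did not pass.

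Chromatin and growth regulators with changes of a similar size were found outside the streak lists. In the Polycomb list 11 of 28 rose and 7 fell. Suz12, a core subunit of Polycomb repressive complex 2, was at 8.82, 9.46 and 8.99 FPKM in control and 24.2, 32.3 and 18.1 in KO libraries, and Kdm6a, a demethylase of the mark that complex places, at 3.50, 4.92 and 5.03 and 12.5, 12.6 and 12.0 FPKM. Pcgf1, of a variant repressive complex 1, fell from 28.2 to 13.6 FPKM. Hmga2, an architectural chromatin protein and target of let-7, was at 2.97, 3.32 and 2.86 FPKM in control and 12.9, 14.0 and 12.2 in KO libraries. Mga, a partner of Max that opposes Myc, was at 3.86, 4.61 and 2.90 FPKM in control and 14.2, 15.7 and 13.7 in KO libraries, while Myc rose from 58.3 to 68.7 FPKM. Amot, which holds Yap1 out of the nucleus, was at 6.93, 6.75 and 6.27 FPKM in control and 35.5, 38.7 and 36.8 in KO libraries.

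Among imprinted genes, 17 of 33 rose and 7 fell. Peg3 was at 10.3, 11.1 and 10.6 FPKM in control and 36.9, 38.0 and 35.6 in KO libraries, and Slc38a4, an amino acid transporter, rose from 8.10 to 17.0 FPKM. Meg3, a maternally expressed non-coding RNA, was at 392, 402 and 411 FPKM in control and 166, 174 and 168 in KO libraries. Meg3 remained lower with the trend removed, at -0.95.

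In 3 lists of stress, growth arrest and actin genes, more members fell than rose as deposited, by less under the other scalings. In the list of the integrated stress response, which is set off by amino acid shortage or unfolded proteins, 18 of 25 fell and 1 rose, a median of -0.41 that shrank to -0.07 with the trend removed, where 10 fell and 5 rose. Chac1, a glutathione-degrading enzyme, was at 13.6, 13.3 and 13.6 FPKM in control and 3.43, 5.21 and 3.38 in KO libraries, and Trib3, a pseudokinase of the same response, at 23.7, 23.4 and 23.0 and 9.05, 10.3 and 9.02 FPKM. Gadd45b was at 46.6, 44.7 and 45.2 FPKM in control and 11.2, 8.94 and 13.5 in KO libraries. Of 29 immediate early and growth arrest genes, 17 fell and 4 rose (13 and 9 with the trend removed), and Fos, the classic immediate early gene, was among the latter, from 9.70, 11.4 and 10.5 FPKM in control to 23.4, 31.1 and 25.0 in KO libraries. In the list of actin and serum response factor genes 13 of 25 fell and 3 rose as deposited, but 9 fell and 8 rose after quantile normalization, and the median of -0.45 became -0.17, so no direction is given for that list. Cyr61, a matrix protein induced by that factor and by Yap1, was at 222, 219.6 and 223 FPKM in control and 104, 107 and 111 in KO libraries. Actb (beta-actin), named after its value was seen, fell from 19523 to 10077 FPKM as deposited. The groups did not differ in Actb after quantile normalization, and its trend-removed value was -0.22.

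Genes of translation, respiration and replication were mostly lower as deposited, and by much less under the other scalings. All 83 ribosomal protein genes tested were lower, with a median of -0.91 that was -0.20 after quantile normalization and -0.15 with the trend removed. Of 91 nuclear respiratory chain genes 81 fell and 1 rose, and the median of -0.72 became -0.17 with the trend removed. Genes of the mitochondrial chromosome went the other way, with 4 of 9 tested higher and 0 lower. The respiratory chain genes mt-Nd5, mt-Nd2 and mt-Co1 were among those that rose. Of 44 replication genes 29 fell and 1 rose, and the median of -0.38 became -0.05. Pold1, the catalytic subunit of DNA polymerase delta, was at 116, 129 and 115 FPKM in control and 41.5, 43.3 and 47.4 in KO libraries and kept a trend-removed value of -1.11. Mcm2, a subunit of the replicative helicase, was the one that rose, from 111 to 171 FPKM, although Mcm3 of the same helicase fell from 288 to 156 FPKM. For mitosis genes, 10 of 44 rose and 20 fell as deposited, and 18 rose and 6 fell after quantile normalization, so no direction is given for that list.

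Far fewer genes passed in LIF, 4.41% of 13153, with 3.45% lower and 0.958% higher. Of 11783 genes tested in both conditions, the KO effect itself differed in 4513, or 38.3% (limma interaction term, adjusted p at most 0.05). In LIF KO replicate 3 the gene Mir6236 held 28.6% of summed FPKM, against 5.25% to 8.31% in the other LIF libraries, and without that library 3972 genes differed. Of the 437 genes lower in LIF, 252 (57.7%) were also lower under Wnt3a and activin A, which is 6.85% of those lower here. A further 54 (12.4%) were higher here. Of the 101 genes higher in LIF, 24 (23.8%) were also higher here and 21 (20.8%) were lower. Of all genes tested here, 19.6% were higher and 29.5% lower, so the shares of opposite calls lay below those of all genes.

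The genes called in opposite directions include members of the pathways above. Ntn1, a secreted guidance protein, was lower in LIF, at 13.8 ± 0.788 against 4.37 ± 0.294 FPKM (SD, n = 3), and higher here, at 5.63, 6.35 and 6.23 against 16.3, 16.1 and 17.3 FPKM. Lef1 fell by 0.75 on the log2 scale in LIF and rose by 1.04 here, Sfrp1 fell by 0.62 and rose by 1.20, and Spry4 fell by 0.55 and rose by 0.82. Klf5 fell by 0.74 in LIF and rose by 0.35 here, and Fn1 fell by 0.39 and rose by 0.80. The reverse was measured for the keratin gene Krt18, with 0.69 in LIF and -0.79 here, and for Lefty1, with 0.51 and -0.58. The interaction term passed for each of these 8 genes, with adjusted p from 9.83e-07 to 6.76e-05. Levels were set by separate tables in the 2 conditions, so only the KO effects are compared. Of the 15 streak factors, 8 reached the filter in LIF and none was called there by limma (1 at an unadjusted p under 0.05), with a median of 0.06.

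**Figure D5:**
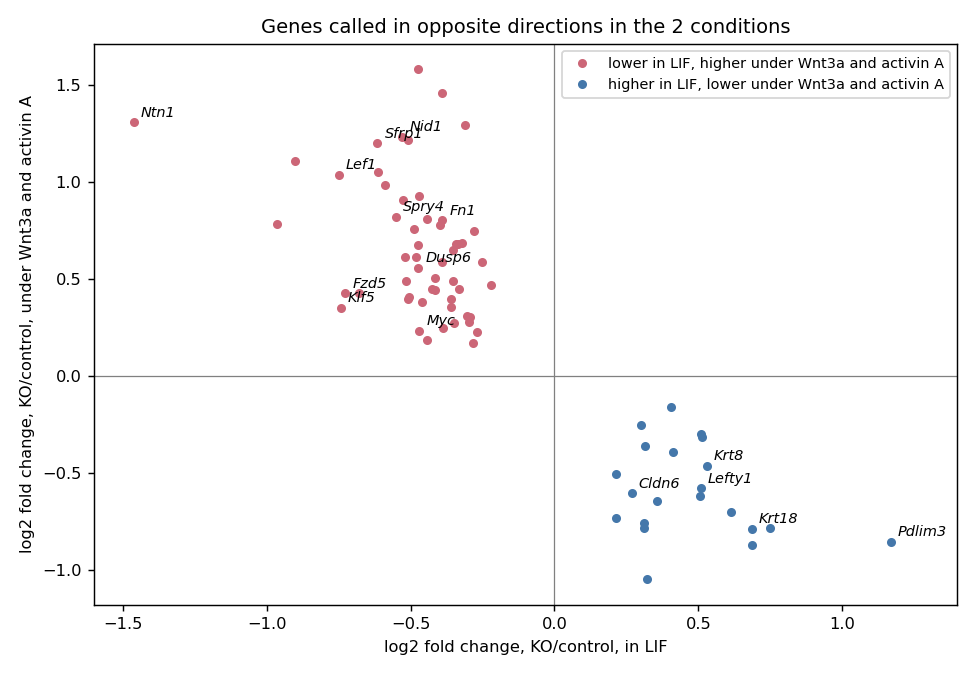
Log2 fold change (KO/control) in LIF (horizontal) and under Wnt3a and activin A (vertical) for the 75 genes that passed the test in both conditions with opposite signs. The 54 genes at the upper left were lower in LIF and higher here, and the 21 at the lower right higher in LIF and lower here.

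Markers of other cells were examined because the cultures had been kept on fibroblasts. Of 16 fibroblast markers, 10 passed the filter, 4 rose and 1 fell. Col1a2 was at 1.44, 1.36 and 1.36 FPKM in control and 4.59, 4.68 and 3.52 in KO libraries, and Col1a1 rose from 2.83 to 6.03 FPKM. Tagln, an actin-binding protein at a locus shared with 5 other tested genes, fell from 270.2 to 78.4 FPKM. Summed over the other 9, the markers were at 60.4 to 66.6 FPKM in control and 69.5 to 74.3 FPKM in KO libraries. Most of that sum came from Thy1, Fbln1 and Acta2, which did not pass, so it says little about the 4 that rose. The fibroblast markers Dcn, Lum, Postn, Pdgfrb, Fap and Cd34 were under the filter. The part of such cells in the rise of collagen and migration genes was not tested. Of 15 blood and endothelial markers, 14 were under the filter, and Gata1, Klf1 and Ptprc are among them.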

How the data were processed

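The authors deposited FPKM for 53796 genes in each condition, with each table scaled on its own. STAR 2.5.4a, Cufflinks 2.2.1 and Cuffdiff are named, without a role, in the submitters' processing notes, which also list mm9 and GRCm38. The sources used here do not give the annotation or the scaling between libraries. No counts were used, so depth is unknown and no count test was run. Columns were matched to samples by their names and titles. Of the gene IDs, 53616 matched a table of names, and 27 symbols turned into dates by a spreadsheet were restored.

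Genes averaging 1 FPKM or more over 6 libraries were tested as log2(FPKM + 1) with limma 3.58.1 (R 4.3.3, empirical Bayes with a trend in level), with Benjamini-Hochberg adjustment over all genes tested and a threshold of 0.05. The difference of the KO effects between conditions was an interaction term over 12 libraries. The fit was tested on simulated data. Spans came from a RefSeq locus, held by 12280 tested genes (96.2%), and 3669 tested genes share a locus with another tested gene, so their fragments may be split between them. The trend in span and level was a spline of 4 degrees of freedom in each.

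The members and the gene lists were chosen with earlier results of these data known. Genes were named by rule: any tested member of the lists on streak, mesoderm, endoderm, signalling pathways, pluripotency, adhesion and Dot1l partners, up to 4 genes past the threshold with the largest change in each direction for every other list, the 15 highest and 15 lowest single genes, and 5 in each direction for the difference between conditions. Apln and Actb fall outside that rule, and genes below the filter are named without a test. Alternatives were a pseudocount of 0.1, no filter and a filter of 5 FPKM, median-of-ratios and quantile scaling, removal of the trend, limma without its variance trend, a replicate block, and each library left out in turn. Leaving out LIF KO replicate 3 was chosen after seeing the data. Peak lists and a table of other ES cells were not used.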

Additional observations from a re-analysis of the deposited data

Results flagged for a closer look

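The KO effect under Wnt3a and activin A was set against that in LIF by an interaction term (limma, adjusted p at most 0.05), and the effects differed in 4513 genes. The genes named here were ranked among those that met limits on symbol and level and shared no locus with another tested gene. Of these, the largest positive difference was that of Greb1l, 4.38 on the log2 scale. Its control libraries in LIF were uneven (6.00 ± 7.04 FPKM, SD, n = 3). Fam107b followed with 2.96, having risen from a mean of 6.40 to 42.4 FPKM here and being at 44.7 and 32.0 FPKM in LIF. The difference was 2.77 for Ntn1, 2.37 for Atf7ip and 2.29 for Bmp4. In LIF, Bmp4 was at 19.1 ± 5.09 FPKM in control and 9.73 ± 7.14 in KO libraries (SD, n = 3). It did not pass there in limma (adjusted p = 0.218).

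Negative differences within the same limits were led by Platr10 with -2.19, which fell from 54.0 to 11.3 FPKM here and was at 73.8 and 74.8 FPKM in LIF. Those of Fgfbp1 (-2.05), Adamtsl4 (-2.03), Pdlim3 (-2.02) and Tmem238 (-2.01) were of similar size. Adamtsl4 did not pass under Wnt3a and activin A alone (adjusted p = 0.336) and was at 3.86 FPKM in control and 11.0 in KO libraries in LIF. All 10 genes still passed without LIF KO replicate 3. Outside those limits larger negative differences were found, such as -2.31 for Tagln, at a locus shared with other tested genes.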

How the results depend on the processing

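The 6273 calls numbered 4949 with the trend removed to 6308 with a pseudocount of 0.1, and 5315 to 5583 with 1 library left out. Genes lower in KO fell from 3773 to 2513 with the trend removed. The 809 genes called with a change of 1 or more on the log2 scale became 1261 with a pseudocount of 0.1, which shrinks low genes less, and 475 with the trend removed. Of the calls, 4726 kept call and direction after quantile normalization and 110 were called the other way, and 3791 and 185 with the trend removed. The 4513 differences between conditions numbered 3784 to 4557. Dot1l stayed lower, between -0.32 and -0.53. Of 159 called genes named with a value, 137 kept their call in every alternative. After quantile normalization the sign turned for Cdh1 (0.23), Cdkn1a (0.10), Fgf8 (0.20), Npm1 (0.59), Tdgf1 (0.31) and Vim (0.33). With the trend removed it turned for Cdkn1a (0.20), Cldn6 (0.0573), Fgf8 (0.34), Foxh1 (0.0932), Lefty1 (0.0317), Npm1 (0.39), Pou5f1 (0.0064), Tdgf1 (0.47) and Vim (0.43), and for the uncalled Acvr1b (-0.0131), Mllt3 (-0.17) and Spry1 (0.222, and 0.0649 by median of ratios). With 1 library left out, uncalled Mllt3 ranged from -0.0665 (without control replicate 2) to 0.3719 and uncalled Sparc from -0.0039 (without KO replicate 2) to 0.0156. The cause was not tested. The replicate numbers share only a number: deviations of same-numbered libraries correlated at -0.012, 0.062 and 0.0045. With the replicate block 5594 genes were called, 797 of them past that size, and 3913 differed between conditions. Cdh1, Lefty2 and Smad2 lost their call (adjusted p from 0.0657 to 0.0772). Counting TCF/LEF matches before the gene start only gave 2 of 16 streak promoters. FPKM carry no depth, so the precision of low values cannot be given.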

Other observations

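Several gene groups outside the account above were described by the same counts. Among 17 Notch pathway genes tested, 8 rose and 2 fell, with a median log2 difference of 0.31. Jag1, a Notch ligand, was at 4.68, 3.35 and 2.98 FPKM in control and 11.0, 9.95 and 10.0 in KO libraries. Among 289 zinc finger genes of the Zfp series, 77 rose and 28 fell, beside 19.6% higher and 29.5% lower of all genes tested. Their median of 0.20 was 0.16 with the trend removed and 0.12 after quantile normalization, where 58 rose and 37 fell. Of 28 neural and ectoderm genes listed 11 passed the filter, and 6 of these rose and 3 fell. Map2, a neuronal microtubule protein, was at 1.45, 0.995 and 1.95 FPKM in control and 8.62, 5.59 and 6.78 in KO libraries. Of the 6 that rose, Ncam1 and Grhl3 did not pass with the trend removed, nor after quantile normalization. The 3 that fell were Tubb3, Nes and Olig2, of which Olig2 did not pass with the trend removed.

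Cholesterol synthesis genes went both ways, with 8 of 26 higher and 9 lower as deposited and 14 higher and 8 lower after quantile normalization. Hsd17b7, an enzyme of that pathway, was at 4.60, 4.09 and 4.18 FPKM in control and 13.3, 14.1 and 15.2 in KO libraries. Of 10 tested transcripts of the Platr series, long non-coding RNAs named for pluripotency, 4 fell, and the others ranged up to a log2 difference of 0.56. Lifr, a receptor subunit for LIF, was at 0.909, 1.59 and 1.99 FPKM in control and 3.54, 4.25 and 4.50 in KO libraries. Other genes of LIF signalling moved both ways as deposited. Jak1, Stat3 and Socs2 were among those higher, and Cntfr, Pim1, Pim3 and Socs1 were lower. The groups did not overlap for Jag1, Map2, Hsd17b7 or Lifr.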
